A study of Mus musculus with 15 samples.

Results

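Integrins, selectins and their receptors are the surface proteins by which cells hold on to each other and to the matrix, and 33 genes of this group were followed in mouse liver across 5 diet and age groups. They were chosen by gene symbol, with earlier results of these data known, and 32 of the 33 were found among 19938 genes (Selp was not analysed here). Of the 32 members, 8 were leukocyte genes (alpha chains Itgal, Itgam, Itgax, Itgae and Itga4, beta chains Itgb2 and Itgb7, and selectin ligand Selplg). Another 18 were matrix-binding integrin chains, and 6 formed the class called endothelial here (Icam1, Icam2, Icam4, Vcam1, Sele and Pecam1). Icam4, an erythroid ligand of integrins, was counted in that class. The livers came from male C57BL/6J mice, and their RNA was hybridised to 15 arrays, 3 in each group. From week 8 the mice received a basal diet, an atherogenic and high-fat diet (Ath+HF) or the Ath+HF diet with 3% branched-chain amino acids (Ath+HF+BCAA), for 30 weeks (killed at week 38, 38w) or 60 weeks (week 68, 68w). Basal 38w, Ath+HF and Ath+HF+BCAA at both ages made the 5 groups. The basal arrays were all of 38w, so that diet, age and time on the diet cannot be told apart when a 68w group is compared with them. Between 38w and 68w on the same diet, age, time on the diet and any batch of arrays cannot be told apart either. The sources do not say that each array was a separate mouse, so that a p-value covers the spread of the arrays, which may be technical.

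An integrin is a pair of an alpha and a beta chain, and the pair sets the ligand. Leukocytes carry Itgb2 with Itgal (LFA-1), Itgam (Mac-1) or Itgax, which bind ICAM-1 and complement or fibrinogen, and Itga4 with Itgb1 (VLA-4), which binds VCAM-1. Selectins on endothelium and platelets slow passing leukocytes through glycans on PSGL-1, the product of Selplg. On stellate cells, bile duct cells and endothelium the matrix-binding integrins hold collagens, laminins and RGD-containing glycoproteins, and those with the Itgav chain also release TGF-beta from its latent form. In the sinusoids of the injured liver, ICAM-1 and VCAM-1 are the counter-receptors by which monocytes and lymphocytes are retained.

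Values are log2 signals, on which a difference of 1 is a doubling, differences are given ± their SE with 3 arrays a group, and a gene was called where limma's Benjamini-Hochberg adjusted p over all genes was below 0.05. The median over all genes was 7.501 to 7.504 on each Ath+HF+BCAA 68w array and 7.28 to 7.39 on the other 12 arrays. For this reason some results of the members at 68w are also given with the array medians set equal, while the counts of the other lists are not. Alb (albumin), the main hepatocyte product, had group means of 13.997 to 14.08, while the summed linear signal of 8 hepatocyte markers was 82990 to 85890 in the basal group, 87330 to 92030 in the Ath+HF 68w group and 68020 to 73440 in the Ath+HF+BCAA 68w group. In the Ath+HF+BCAA 68w group 2 of these 8 markers were called lower than basal, G6pc (-2.615) and Fabp1 (-1.502), and the other markers were not called. The direction of every difference between the 68w groups follows the deposited labels and is open to doubt. The study describes liver fibrosis, its genes and its proteins as raised by the Ath+HF diet and repressed by BCAA, and inflammation-related genes on its arrays likewise. Between the 68w groups the direction on these arrays is the opposite. At 68w the mean log2 signals without and with BCAA, as labelled, were 8.35 and 9.42 for Tgfb1 (a fibrogenic cytokine), 8.13 and 9.71 for Pdgfrb and 8.03 and 9.15 for Acta2, both of activated stellate cells, beside 8.31, 7.92 and 7.53 in the basal group. In the Ath+HF 38w group the means of these genes were above basal, at 8.79, 8.59 and 8.22. Whether the labels of these groups are exchanged cannot be told from the values, so that each 68w group below is the group so labelled. In whole liver, more cells of a type and more RNA per cell cannot be told apart.

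Members that lie next to each other were called alike at one locus and apart at another, and the promoters of these pairs are shown. Itgam and Itgax, which encode the alpha chains of Mac-1 and of the dendritic cell and macrophage integrin CD11c, lie 11034 bases apart on chromosome 7 and were called in the same direction in 6 of the 8 pairwise comparisons. Icam1 and Icam4, the latter an erythroid ligand of integrins, lie 617 bases apart on chromosome 9, and Icam1 was called in 6 of these comparisons while Icam4 was called in none. Itgb2, Itga4 and Selplg, on chromosomes 10, 2 and 5, were also called in 6, so that count was not confined to these loci. Itgal, which was called in 6 as well, lies on chromosome 7 like Itgam and Itgax. A further pair of neighbours, Itga1 and Itga2, is described with the collagen receptors. The 250 bases before each start are given from RefSeq (GRCm38.p6, plus strand), with matches to GAGGAA, the core bound by the myeloid factor PU.1, in capitals.
Itgam (chr7:128062390-128062639): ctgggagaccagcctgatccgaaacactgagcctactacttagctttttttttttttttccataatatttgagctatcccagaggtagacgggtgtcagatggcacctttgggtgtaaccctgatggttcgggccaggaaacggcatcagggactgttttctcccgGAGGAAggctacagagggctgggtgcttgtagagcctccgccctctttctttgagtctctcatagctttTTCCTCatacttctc
Itgax (chr7:128129300-128129549): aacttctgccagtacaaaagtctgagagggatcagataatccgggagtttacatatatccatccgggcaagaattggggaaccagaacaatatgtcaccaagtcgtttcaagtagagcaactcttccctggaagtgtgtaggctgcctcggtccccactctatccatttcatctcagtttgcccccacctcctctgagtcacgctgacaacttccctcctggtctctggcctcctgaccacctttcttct
Icam1 (chr9:21015690-21015939): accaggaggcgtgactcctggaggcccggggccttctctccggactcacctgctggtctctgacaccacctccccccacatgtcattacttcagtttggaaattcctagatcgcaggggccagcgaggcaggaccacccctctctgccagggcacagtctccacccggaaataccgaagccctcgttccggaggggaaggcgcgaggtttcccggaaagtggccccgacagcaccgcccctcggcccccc
Icam4 (chr9:21029182-21029431): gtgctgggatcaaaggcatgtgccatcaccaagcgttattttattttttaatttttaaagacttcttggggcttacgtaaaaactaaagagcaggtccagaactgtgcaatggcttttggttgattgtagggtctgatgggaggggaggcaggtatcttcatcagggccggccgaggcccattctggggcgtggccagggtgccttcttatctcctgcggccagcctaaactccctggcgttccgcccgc
The letters GAGGAA were searched on both strands, where they read TTCCTC on the minus strand. The Itgam promoter held them with the leftmost base 84 bases before the start on the plus strand and 15 bases before it on the minus strand, and the windows of the other 3 genes held none. Among members with a promoter in the table, 1 of 4 leukocyte, 7 of 14 matrix-binding and 1 of 3 endothelial genes had a match, against 25.85% of all genes. A second motif, GGGNNTTCC of NF-kB, shares the letters TTCC with the first on one strand and was present in 1 of the 14 matrix-binding genes, Itgb1, in no other member with a promoter and in 5.61% of all genes. A match describes the letters of the window and no more. Near matches to GGGNNTTCC were not counted, such as tggaaattcc in the Icam1 window. A window without a match may thus still hold a site for NF-kB.

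Against the basal group, 7 of 8 leukocyte genes were up-regulated on the Ath+HF diet at 38w, 6 with BCAA at 38w and 8 in the Ath+HF+BCAA 68w group, while 11 of 18 matrix-binding chains were up-regulated in the last of these. Of the 32 members, 10 were higher in the Ath+HF 38w group and none was lower. In this comparison 3.05% of all genes were higher and 1.18% lower. For the Ath+HF+BCAA 38w group 7 members were higher and none lower, with 3.67% and 1.82% of all genes, and with array medians set equal 7 were higher and 1 lower (Itga7). After 60 weeks on Ath+HF 3 members were higher and 7 lower, beside 19.0% of all genes higher and 19.1% lower. The lower members made 21.9% of the 32, near the background of this comparison. After 60 weeks on Ath+HF+BCAA 23 members were higher and none lower, beside 22.9% and 21.8% of all genes. The median log2 difference from basal over the members was 0.25 in both 38w groups, 0.01 in the Ath+HF 68w group and 0.59 in the Ath+HF+BCAA 68w group, and over all genes it lay between -0.01 and 0.05. The 4 comparisons share the 3 basal arrays. With array medians set equal, 2 members were higher and 9 lower in the Ath+HF 68w group, and 17 were higher and 3 lower (Itga1, Itga7 and Itgb1) in the Ath+HF+BCAA 68w group. With quantile normalization the Ath+HF 68w group had 1 member higher and 6 lower.

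**Figure D1:**
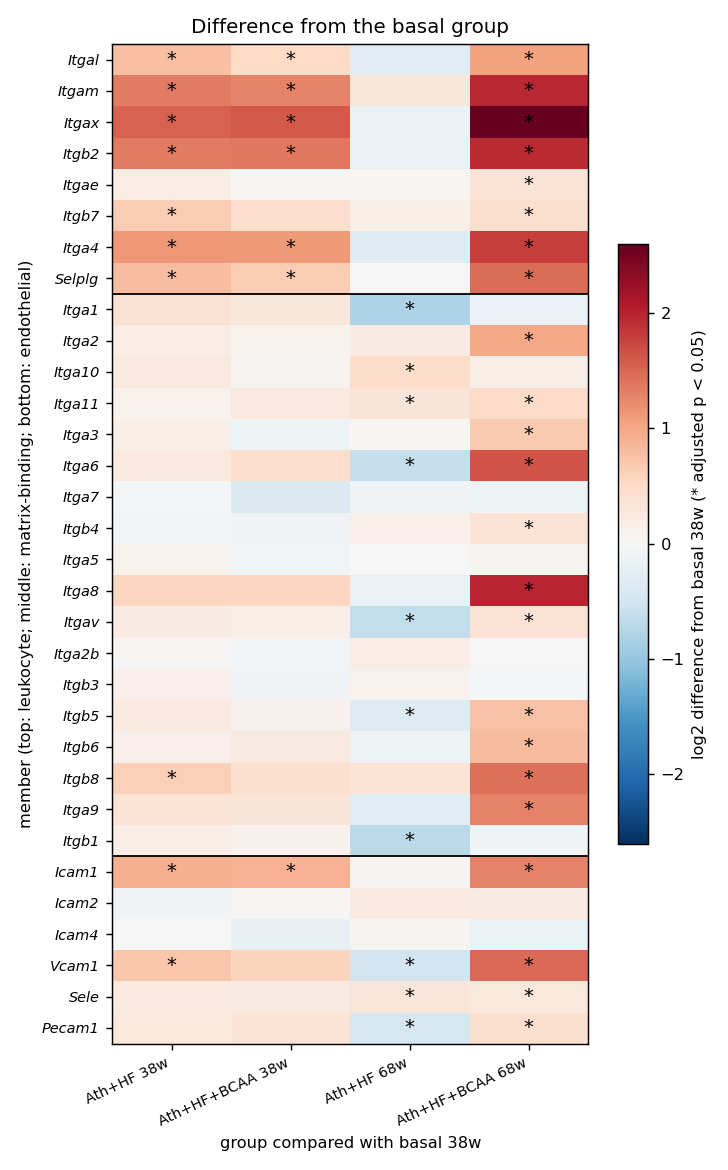
Log2 difference of each of the 32 members (rows) from the basal 38w group in the 4 other groups (columns), 3 arrays a group, with red for higher, blue for lower and a star for adjusted p below 0.05. The leukocyte block at the top is red in 3 columns and pale in the Ath+HF 68w column, where no leukocyte member was called.

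The leukocyte members were the class most often called at 38w. Of the 8 genes, 7 were higher in the Ath+HF 38w group and 6 in the Ath+HF+BCAA 38w group, none was called in the Ath+HF 68w group, and all 8 were higher in the Ath+HF+BCAA 68w group. In the Ath+HF 68w group Itgal was called lower with array medians set equal (-0.35, adjusted p = 0.0329) and Itgax with quantile normalization (-0.33, adjusted p = 0.0203). Itgb2 encodes the beta chain shared by LFA-1, Mac-1 and CD11c/CD18, and its log2 signal read 7.91, 7.98 and 8.05 in the basal group, 9.26, 9.46 and 9.23 in the Ath+HF 38w group and 9.44, 9.14 and 9.49 in the Ath+HF+BCAA 38w group. At 68w Itgb2 read 7.83, 7.85 and 7.74 in the Ath+HF group and 9.80, 10.28 and 9.68 in the Ath+HF+BCAA group. All 9 arrays of the 3 groups in which it was called lay above every basal array. Its log2 difference from basal was 1.34 ± 0.14 in the Ath+HF 38w group (adjusted p = 9.47e-05) and 1.38 ± 0.14 in the Ath+HF+BCAA 38w group (adjusted p = 7.77e-05). The Ath+HF+BCAA 68w group lay 1.94 ± 0.14 above basal (adjusted p = 4.56e-08), while the Ath+HF 68w group lay -0.17 ± 0.14 from basal (adjusted p = 0.343).

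Itgax, the CD11c alpha chain of dendritic cells and lipid-laden macrophages, had the widest range of all members and read 6.75, 6.42 and 6.58 in the basal group, 8.08, 8.14 and 8.10 in the Ath+HF 38w group and 8.26, 8.16 and 8.13 in the Ath+HF+BCAA 38w group. At 68w Itgax read 6.29, 6.57 and 6.44 in the Ath+HF group and 9.11, 9.10 and 9.30 in the Ath+HF+BCAA group. The Ath+HF+BCAA 68w arrays were 6.01-fold above basal on the linear scale, against 2.88-fold and 3.04-fold in the 38w groups. Itgam, the alpha chain of Mac-1 on monocytes, macrophages and neutrophils, read 6.13, 6.47 and 6.41 in the basal group, 7.52, 7.61 and 7.91 in the Ath+HF 38w group and 7.76, 7.35 and 7.78 in the Ath+HF+BCAA 38w group. At 68w Itgam read 6.55, 6.70 and 6.64 in the Ath+HF group and 7.99, 8.75 and 8.12 in the Ath+HF+BCAA group. Its Ath+HF 68w arrays were above the basal arrays without overlap, but the difference of 0.30 ± 0.18 was not called (adjusted p = 0.2). Those of Itgal, Itgb2 and Itga4 lay below the basal arrays without overlap, at -0.29, -0.17 and -0.34, and were not called either. Such a lack of overlap was common in this comparison, with 5260 of all 19938 genes above and 4729 below the basal arrays. Itgal, the LFA-1 alpha chain of lymphocytes and myeloid cells, read 8.23, 8.06 and 8.15 in the basal group, 9.04, 9.05 and 8.72 in the Ath+HF 38w group and 8.76, 8.48 and 8.76 in the Ath+HF+BCAA 38w group. At 68w Itgal read 7.82, 7.95 and 7.81 in the Ath+HF group and 9.04, 9.45 and 9.08 in the Ath+HF+BCAA group. Among the 4 members of the Itgb2 family, which leave out Itgad, Itgal had the smallest differences. These were 0.79 ± 0.13 at 38w on the Ath+HF diet and 1.04 ± 0.13 in the Ath+HF+BCAA 68w group. Itgad, which is not a member, had means of 7.18 in the basal group, 7.39 in the Ath+HF 38w group and 7.11 in the Ath+HF+BCAA 38w group. Its means at 68w were 7.66 in the Ath+HF group and 7.32 in the Ath+HF+BCAA group, so that, unlike these members, it stood highest in the Ath+HF 68w group.

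Itga4, the alpha chain of VLA-4 and thus the receptor of VCAM-1, read 7.69, 7.54 and 7.60 in the basal group, 9.07, 8.57 and 8.55 in the Ath+HF 38w group and 8.76, 8.44 and 8.96 in the Ath+HF+BCAA 38w group. At 68w Itga4 read 7.26, 7.23 and 7.31 in the Ath+HF group and 9.17, 9.96 and 9.11 in the Ath+HF+BCAA group. Replicate 2 of the Ath+HF+BCAA 68w group stood highest, as it also did for Itgal, Itgam, Itgb2 and Selplg. Selplg, which encodes the ligand of P-selectin, read 7.42, 7.67 and 7.58 in the basal group, 8.43, 8.60 and 8.05 in the Ath+HF 38w group and 8.43, 8.10 and 8.10 in the Ath+HF+BCAA 38w group. At 68w Selplg read 7.44, 7.62 and 7.65 in the Ath+HF group and 8.82, 9.34 and 8.85 in the Ath+HF+BCAA group. Its log2 difference from basal was 0.80 ± 0.16, 0.65 ± 0.16 and 1.45 ± 0.16 in the Ath+HF 38w, Ath+HF+BCAA 38w and Ath+HF+BCAA 68w groups. Itgb7, the beta chain of the gut-homing pair with Itga4, read 6.46, 7.01 and 6.56 in the basal group, 7.45, 7.47 and 7.06 in the Ath+HF 38w group and 7.26, 6.98 and 7.18 in the Ath+HF+BCAA 38w group. At 68w Itgb7 read 6.74, 7.003 and 6.81 in the Ath+HF group and 7.08, 7.16 and 7.05 in the Ath+HF+BCAA group. It was higher in the Ath+HF 38w group (0.65 ± 0.14, adjusted p = 0.0175) and in the Ath+HF+BCAA 68w group (0.42 ± 0.14, adjusted p = 0.027), with the smallest change in the class apart from Itgae. Itgae (CD103), which holds intraepithelial T cells and some dendritic cells on E-cadherin, was called in the Ath+HF+BCAA 68w group alone of the 8 pairwise comparisons, at 0.36 ± 0.12 (adjusted p = 0.0267). Its signal was dim, with a highest group mean of 6.53 in that group.

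Several of these calls were lost when 1 array was left out, often with any of several arrays. Itgb7 in the Ath+HF 38w group lost its call without basal replicate 1 (adjusted p = 0.0761) or 3 (0.0734) or Ath+HF replicate 1 (0.073) or 2 (0.0871) and in the fit of the 38w arrays alone (0.0759). Selplg lost it there without Ath+HF replicate 2 (adjusted p = 0.052). With BCAA at 38w Itgal lost its call without basal replicate 2 (adjusted p = 0.0795) or 3 (0.0653) or Ath+HF+BCAA replicate 1 (0.0925) or 3 (0.0888). Selplg lost it without basal replicate 1 (adjusted p = 0.0841) or 3 (0.0592) or Ath+HF+BCAA replicate 1 (0.101). Both also missed the threshold in the fit of the 38w arrays alone (adjusted p = 0.0562 and 0.05) and with quantile normalization (0.0516 and 0.0619). With BCAA at 68w the call of Itgb7 was lost without basal replicate 1 (adjusted p = 0.122) or 3 (0.0908) or Ath+HF+BCAA replicate 1 (0.0581) or 2 (0.0838). That of Itgae was lost without basal replicate 2 (adjusted p = 0.0911) or 3 (0.0892) or Ath+HF+BCAA replicate 2 (0.102) or 3 (0.0536). Itgae and Itgb7 were also not called in that group with array medians set equal (adjusted p = 0.32 and 0.219) or with quantile normalization (0.132 and 0.199). Itgax, Itgb2, Itga4 and Itgam kept their calls against basal in both 38w groups and in the Ath+HF+BCAA 68w group without any 1 array.

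Between 38w and 68w, going by the labels, 7 of 8 leukocyte members were lower on the Ath+HF diet and 6 of 8 higher on the Ath+HF+BCAA diet. From Ath+HF 38w to Ath+HF 68w 17 members were lower and 1 higher, where 20.0% of all genes were lower and 17.6% higher. From Ath+HF+BCAA 38w to Ath+HF+BCAA 68w 17 were higher and 1 lower, beside 20.5% and 18.3% of all genes. With array medians set equal Itgb1 was also called lower in the latter comparison (-0.34, adjusted p = 0.0175), and Icam1 was no longer called (adjusted p = 0.122). Itgax fell by 1.67 on the log2 scale in the first comparison (adjusted p = 9.77e-08) and rose by 0.99 in the second (adjusted p = 5.08e-06). Itgae was called in neither comparison, and Itgb7 differed by -0.04 ± 0.14 in the second (adjusted p = 0.84). For Itgb2 these log2 differences were -1.51 ± 0.14 and 0.56 ± 0.14, and for Itga4 -1.47 ± 0.20 and 0.69 ± 0.20. The rise of Itga4 was not called without Ath+HF+BCAA 68w replicate 2 (log2 difference 0.42, adjusted p = 0.0659) or Ath+HF+BCAA 38w replicate 2 (adjusted p = 0.0571), and that of Itgam (0.66 ± 0.18) not without Ath+HF+BCAA 68w replicate 2 (log2 difference 0.42, adjusted p = 0.0518). The fall of Itgb7 on the Ath+HF diet (-0.48 ± 0.14) was not called without Ath+HF 38w replicate 1 or 2 (adjusted p = 0.0713 and 0.0706) or Ath+HF 68w replicate 1 or 3 (adjusted p = 0.0622 and 0.0561). With the 68w labels exchanged, 5 leukocyte members were higher and none lower from 38w to 68w on the Ath+HF diet, and 6 were lower and none higher on the Ath+HF+BCAA diet. The log2 differences of Itgax were then 1.06 (adjusted p = 2.42e-06) and -1.75 (adjusted p = 6.83e-08).

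**Figure D2:**
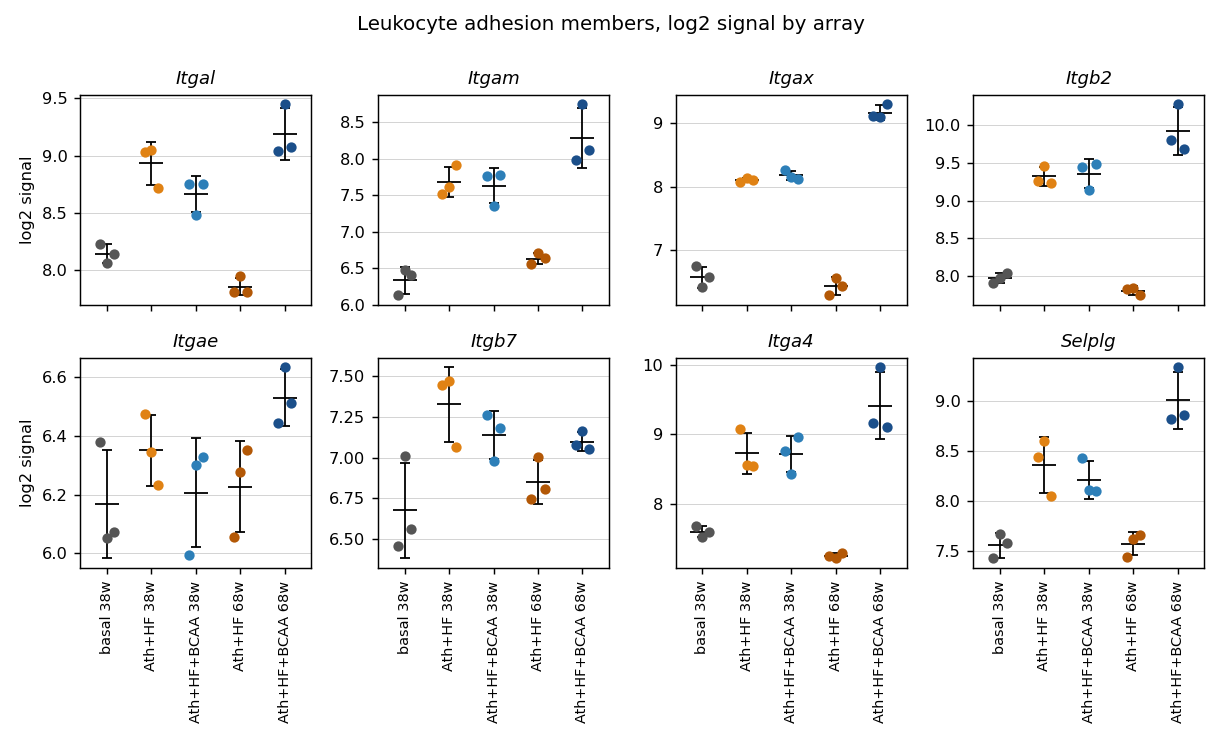
Log2 signal (vertical axis, scaled for each gene) of the 8 leukocyte members on the 15 arrays, 3 points for each of the 5 groups, with the mean and SD as black bars. In Itgax the Ath+HF+BCAA 68w arrays lie at 9.10 to 9.30 and the Ath+HF 68w arrays at 6.29 to 6.57, beside basal arrays at 6.42 to 6.75.

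Few matrix-binding chains were called at 38w. Of the 18, Itgb8 alone was called in the Ath+HF 38w group and none in the Ath+HF+BCAA 38w group. At 68w 2 were higher and 5 lower than basal on Ath+HF (11.1% and 27.8%, beside 19.0% and 19.1% of all genes), and 11 were higher and none lower on Ath+HF+BCAA (61.1% higher, beside 22.9% of all genes). Among the alpha chains that bind laminin, Itga6 (with Itgb1 or Itgb4, on bile duct and endothelial cells) read 7.07, 7.005 and 7.004 in the basal group, 7.28, 7.15 and 7.40 in the Ath+HF 38w group and 7.51, 7.16 and 7.76 in the Ath+HF+BCAA 38w group. At 68w Itga6 read 6.67, 6.34 and 6.23 in the Ath+HF group and 8.70, 8.72 and 8.58 in the Ath+HF+BCAA group. The Ath+HF 68w arrays lay below all others and the Ath+HF+BCAA 68w arrays above all others, at -0.61 ± 0.14 (adjusted p = 0.00344) and 1.64 ± 0.14 (adjusted p = 2.3e-07) from basal. Itga3, a laminin receptor of epithelia, read 7.42, 7.23 and 7.26 in the basal group, 7.49, 7.27 and 7.61 in the Ath+HF 38w group and 7.09, 7.25 and 7.25 in the Ath+HF+BCAA 38w group. At 68w Itga3 read 7.32, 7.41 and 7.35 in the Ath+HF group and 8.06, 7.99 and 7.89 in the Ath+HF+BCAA group. It was 0.68 ± 0.10 above basal in the Ath+HF+BCAA 68w group and 0.05 ± 0.10 from it in the Ath+HF 68w group (adjusted p = 0.714). Itgb4, the partner of Itga6 in hemidesmosomes, was higher in the Ath+HF+BCAA 68w group (0.36 ± 0.09, adjusted p = 0.00416). This call was not made with array medians set equal (adjusted p = 0.17) or with quantile normalization (0.195). Itga7, the laminin receptor of muscle, was called in no comparison, with signals of 6.83 to 7.48 over the 15 arrays.

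The chains of RGD-binding integrins were divided. Itga8, a partner of Itgb1 on stellate cells and other mesenchymal cells, read 7.66, 7.46 and 7.27 in the basal group, 8.29, 8.02 and 7.74 in the Ath+HF 38w group and 8.05, 7.64 and 8.40 in the Ath+HF+BCAA 38w group. At 68w Itga8 read 7.38, 7.39 and 7.12 in the Ath+HF group and 9.38, 9.41 and 9.56 in the Ath+HF+BCAA group. It was 3.96-fold above basal in the Ath+HF+BCAA 68w group (1.99 ± 0.17 on the log2 scale, adjusted p = 3.06e-07), while both 38w groups had differences of 0.55 ± 0.17 and 0.57 ± 0.17 that were not called (adjusted p = 0.0956 and 0.0727). Itgb8, which with Itgav activates latent TGF-beta, read 6.71, 6.54 and 6.48 in the basal group, 7.27, 7.08 and 7.23 in the Ath+HF 38w group and 6.85, 6.87 and 7.23 in the Ath+HF+BCAA 38w group. At 68w Itgb8 read 6.75, 6.76 and 7.30 in the Ath+HF group and 8.06, 7.91 and 8.06 in the Ath+HF+BCAA group. It was higher in the Ath+HF 38w group (0.62 ± 0.14, adjusted p = 0.0228) and in the Ath+HF+BCAA 68w group (1.44 ± 0.14, adjusted p = 1.14e-06). The former call was lost without basal replicate 2 (adjusted p = 0.0624) or 3 (0.0862) or Ath+HF replicate 1 (0.0804) or 3 (0.0687), and with quantile normalization (0.0603). Itgb6, an epithelial partner of Itgav and also an activator of TGF-beta, read 5.62, 5.44 and 5.70 in the basal group, 5.66, 5.88 and 5.61 in the Ath+HF 38w group and 5.79, 5.67 and 5.998 in the Ath+HF+BCAA 38w group. At 68w Itgb6 read 5.38, 5.37 and 5.63 in the Ath+HF group and 6.39, 6.29 and 6.52 in the Ath+HF+BCAA group. The mean of Itgb6 over the 15 arrays was the lowest of any member, and the Ath+HF+BCAA 68w arrays stood 0.82 ± 0.12 above basal.

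Itgav itself, the common alpha chain of these receptors, read 10.02, 9.61 and 9.81 in the basal group, 10.11, 9.88 and 10.10 in the Ath+HF 38w group and 9.94, 9.79 and 10.15 in the Ath+HF+BCAA 38w group. At 68w Itgav read 9.20, 9.21 and 9.10 in the Ath+HF group and 10.15, 10.08 and 10.34 in the Ath+HF+BCAA group. It was lower in the Ath+HF 68w group (-0.64 ± 0.12, adjusted p = 0.00109) and slightly higher in the Ath+HF+BCAA 68w group (0.38 ± 0.12, adjusted p = 0.0202), where the call was lost without basal replicate 2 (adjusted p = 0.0949) or Ath+HF+BCAA replicate 3 (0.0893) and with array medians set equal (0.272). Itgb5, a vitronectin receptor chain with Itgav, read 10.60, 10.70 and 10.65 in the basal group, 10.84, 10.95 and 10.92 in the Ath+HF 38w group and 10.76, 10.48 and 11.06 in the Ath+HF+BCAA 38w group. At 68w Itgb5 read 10.28, 10.32 and 10.37 in the Ath+HF group and 11.41, 11.44 and 11.38 in the Ath+HF+BCAA group. Its arrays of the 68w groups lay on opposite sides of the basal arrays, at -0.33 ± 0.12 (adjusted p = 0.0373) and 0.77 ± 0.12 (adjusted p = 6.34e-05). The lower call of Itgb5 was lost without any 1 of the 3 basal arrays (adjusted p = 0.0565, 0.0895 and 0.0737) or of the 3 Ath+HF 68w arrays (adjusted p = 0.0909, 0.0843 and 0.0618). That call was also lost with quantile normalization (adjusted p = 0.269). The fibronectin receptor chain Itga5 and the platelet fibrinogen receptor chains Itga2b and Itgb3 were called in no comparison, with ranges over the 15 arrays of 8.64 to 9.06, 7.07 to 7.56 and 7.33 to 7.81. Itga2b and Itgb3 were lower in the Ath+HF+BCAA 68w group than in the Ath+HF 68w group with array medians set equal (adjusted p = 0.0237 and 0.0387).

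Itga9, which binds tenascin C, osteopontin and SVEP1, read 8.79, 8.70 and 8.89 in the basal group, 9.30, 9.12 and 9.02 in the Ath+HF 38w group and 9.02, 8.97 and 9.37 in the Ath+HF+BCAA 38w group. At 68w Itga9 read 8.60, 8.67 and 8.32 in the Ath+HF group and 10.16, 10.13 and 9.95 in the Ath+HF+BCAA group. The Ath+HF+BCAA 68w arrays were above all others, 1.29 ± 0.13 over basal (adjusted p = 8.81e-07), and the Ath+HF 68w arrays below all others, at a difference of -0.27 ± 0.13 that was not called (adjusted p = 0.107).

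The collagen receptors split by chain. Itga1, found on stellate and sinusoidal endothelial cells, read 9.55, 9.22 and 9.25 in the basal group, 9.79, 9.75 and 9.65 in the Ath+HF 38w group and 9.68, 9.45 and 9.76 in the Ath+HF+BCAA 38w group. At 68w Itga1 read 8.65, 8.50 and 8.47 in the Ath+HF group and 9.15, 9.23 and 9.17 in the Ath+HF+BCAA group. It was -0.80 ± 0.11 from basal in the Ath+HF 68w group (adjusted p = 8.72e-05) and -0.16 ± 0.11 in the Ath+HF+BCAA 68w group (adjusted p = 0.253), and from 38w to 68w it was lower on both diets (-1.19 ± 0.11 without BCAA and -0.44 ± 0.11 with it). Itga2, its neighbour at 25978 bases on chromosome 13 and a receptor of epithelia and platelets, read 6.45, 6.47 and 6.83 in the basal group, 6.59, 6.94 and 6.83 in the Ath+HF 38w group and 6.80, 6.64 and 6.56 in the Ath+HF+BCAA 38w group. At 68w Itga2 read 6.64, 6.78 and 6.97 in the Ath+HF group and 7.52, 7.58 and 7.63 in the Ath+HF+BCAA group. The Ath+HF+BCAA 68w arrays alone stood apart, 0.996 ± 0.13 above basal. Itga10 and Itga11, the collagen receptors of cartilage and of fibroblasts, were the matrix-binding chains called higher in the Ath+HF 68w group, where 5 others were called lower and 11 were not called. Itga10 read 6.98, 6.61 and 7.11 in the basal group, 7.17, 7.33 and 6.96 in the Ath+HF 38w group and 7.12, 6.96 and 6.87 in the Ath+HF+BCAA 38w group. At 68w Itga10 read 7.39, 7.42 and 7.30 in the Ath+HF group and 7.13, 6.995 and 7.04 in the Ath+HF+BCAA group. It was 0.47 ± 0.13 above basal in the Ath+HF 68w group (adjusted p = 0.00961). Itga11 read 6.43, 6.19 and 6.54 in the basal group, 6.49, 6.64 and 6.32 in the Ath+HF 38w group and 6.60, 6.49 and 6.85 in the Ath+HF+BCAA 38w group. At 68w Itga11 read 6.70, 6.71 and 6.75 in the Ath+HF group and 6.84, 6.87 and 6.96 in the Ath+HF+BCAA group. It was 0.33 ± 0.12 above basal in the Ath+HF 68w group and 0.51 ± 0.12 in the Ath+HF+BCAA 68w group. The Ath+HF 68w call of Itga11 (adjusted p = 0.0347) was lost without basal replicate 1 (adjusted p = 0.0551) or 2 (0.14) or any 1 of the Ath+HF 68w arrays (0.0618, 0.073 and 0.0907). That call was also lost with quantile normalization (adjusted p = 0.265) and with array medians set equal (0.0804).

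Itgb1, the beta chain that pairs with most of the alpha chains above, read 10.41, 10.12 and 10.29 in the basal group, 10.48, 10.43 and 10.42 in the Ath+HF 38w group and 10.29, 10.24 and 10.61 in the Ath+HF+BCAA 38w group. At 68w Itgb1 read 9.54, 9.66 and 9.54 in the Ath+HF group and 10.19, 10.16 and 10.23 in the Ath+HF+BCAA group. The Ath+HF 68w arrays were below all others, -0.70 ± 0.10 from basal (adjusted p = 0.000197). With BCAA at 68w Itgb1 differed from basal by -0.08 ± 0.10 (adjusted p = 0.546), beside its partners Itga6, Itga8 and Itga9 at 1.64, 1.99 and 1.29. With array medians set equal the log2 difference of Itgb1 there was -0.29 and was called lower (adjusted p = 0.0286), and that of Itga1 was -0.37 (adjusted p = 0.00852).

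**Figure D3:**
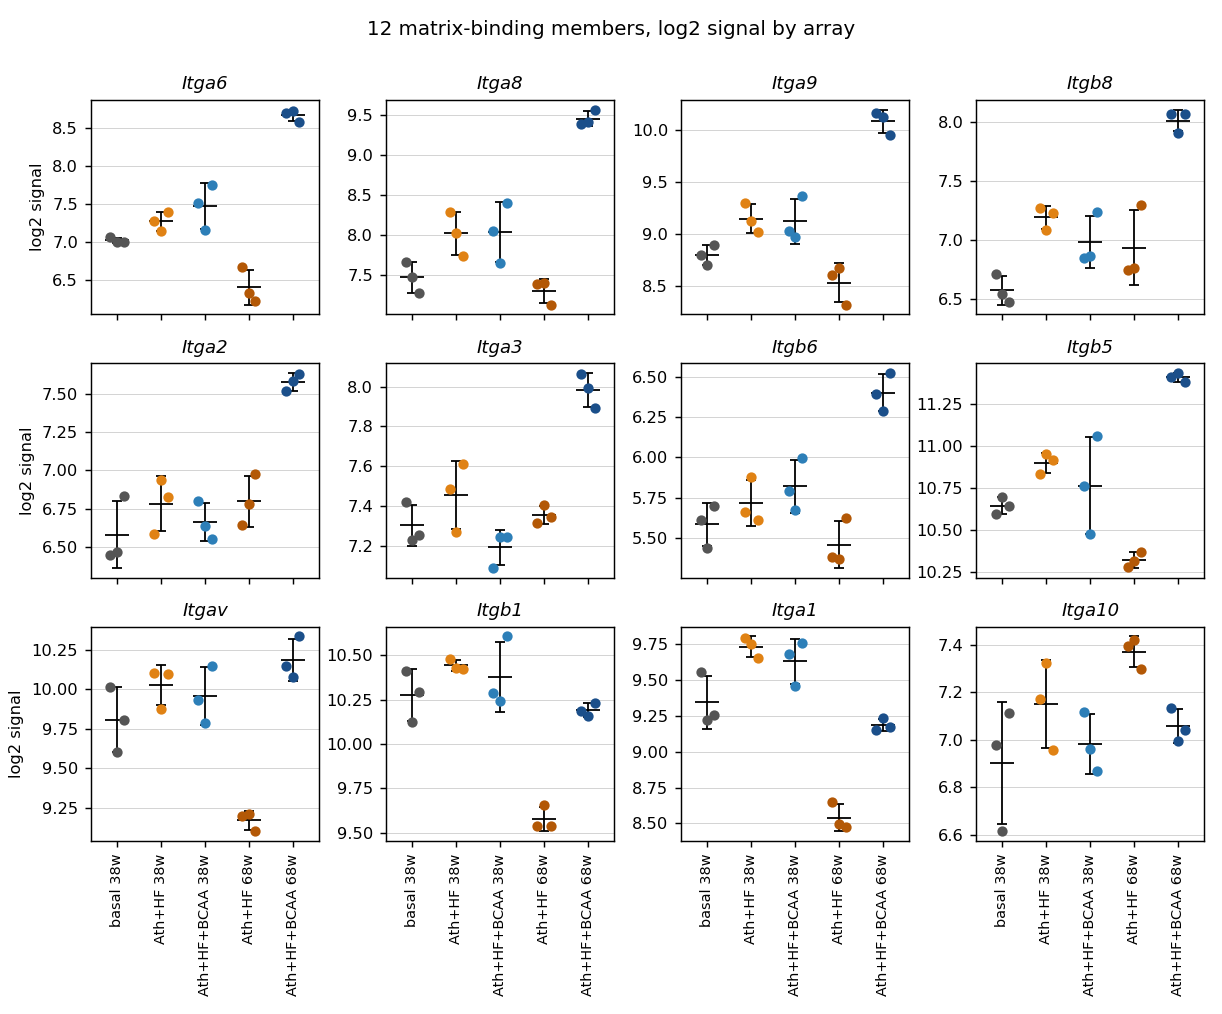
Log2 signal (vertical axis, scaled for each gene) of 12 of the 18 matrix-binding members on the 15 arrays, 3 points for each of the 5 groups, with the mean and SD as black bars. Itga6, Itga8, Itga9 and Itgb8 stand highest in the Ath+HF+BCAA 68w group, whereas Itgb1 and Itga1 stand lowest in the Ath+HF 68w group and Itga10 highest there.

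Of the 6 endothelial members, Icam1 and Vcam1 were higher in the Ath+HF 38w group (33.3%, beside 3.05% of all genes). Icam1 alone was higher in the Ath+HF+BCAA 38w group (16.7%, beside 3.67%). In the Ath+HF 68w group Sele was higher and Vcam1 and Pecam1 were lower (16.7% and 33.3%, beside 19.0% and 19.1%). In the Ath+HF+BCAA 68w group Icam1, Vcam1, Sele and Pecam1 were higher (66.7%, beside 22.9%), Sele and Pecam1 not with array medians set equal. Icam1, the ligand of LFA-1 and Mac-1, read 8.63, 8.61 and 8.42 in the basal group, 9.51, 9.46 and 9.44 in the Ath+HF 38w group and 9.68, 9.25 and 9.48 in the Ath+HF+BCAA 38w group. At 68w Icam1 read 8.59, 8.63 and 8.67 in the Ath+HF group and 9.69, 9.95 and 9.86 in the Ath+HF+BCAA group. It was 0.92 ± 0.11 above basal in the Ath+HF 38w group (adjusted p = 0.000256), 0.91 ± 0.11 in the Ath+HF+BCAA 38w group (adjusted p = 0.000248) and 1.28 ± 0.11 in the Ath+HF+BCAA 68w group (adjusted p = 2.51e-07). Icam1 was at 0.08 ± 0.11 in the Ath+HF 68w group (adjusted p = 0.595). Vcam1, the ligand of VLA-4, read 8.90, 8.74 and 8.36 in the basal group, 9.54, 9.66 and 8.99 in the Ath+HF 38w group and 9.55, 8.99 and 9.23 in the Ath+HF+BCAA 38w group. At 68w Vcam1 read 7.94, 8.19 and 8.36 in the Ath+HF group and 10.17, 10.23 and 10.05 in the Ath+HF+BCAA group. It was higher in the Ath+HF 38w group (0.73 ± 0.19, adjusted p = 0.0374), lower in the Ath+HF 68w group (-0.51 ± 0.19, adjusted p = 0.0429) and 2.79-fold above basal in the Ath+HF+BCAA 68w group (adjusted p = 1.05e-05). The Ath+HF 38w call of Vcam1 was lost without basal replicate 2 (adjusted p = 0.0661) or 3 (0.144), Ath+HF 38w replicate 1 (0.123) or 2 (0.159), Ath+HF 68w replicate 2 (0.0524) or Ath+HF+BCAA 68w replicate 1 (0.0537), and in the fit of the 38w arrays alone (0.113). Its Ath+HF 68w call was lost without basal replicate 1 (adjusted p = 0.157) or 2 (0.101), Ath+HF 68w replicate 1 (0.148) or 2 (0.0826), or any 1 of the Ath+HF+BCAA 68w arrays (0.0545, 0.0524 and 0.0529). Both the Ath+HF 38w and the Ath+HF 68w call of Vcam1 were also lost with quantile normalization (adjusted p = 0.0554 and 0.173).

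Pecam1, a junction protein of all endothelium that platelets and leukocytes also carry, read 8.37, 8.06 and 8.33 in the basal group, 8.58, 8.45 and 8.55 in the Ath+HF 38w group and 8.56, 8.50 and 8.75 in the Ath+HF+BCAA 38w group. At 68w Pecam1 read 7.89, 7.84 and 7.72 in the Ath+HF group and 8.62, 8.64 and 8.73 in the Ath+HF+BCAA group. It was -0.43 ± 0.10 from basal in the Ath+HF 68w group (adjusted p = 0.00431) and 0.41 ± 0.10 in the Ath+HF+BCAA 68w group (adjusted p = 0.00405), and the latter was not called with array medians set equal (adjusted p = 0.118). Sele, the E-selectin of activated endothelium, read 6.83, 6.66 and 6.81 in the basal group, 7.08, 7.03 and 6.97 in the Ath+HF 38w group and 6.97, 6.95 and 7.05 in the Ath+HF+BCAA 38w group. At 68w Sele read 7.05, 7.09 and 7.13 in the Ath+HF group and 7.11, 7.05 and 6.99 in the Ath+HF+BCAA group. Its differences from basal were 0.32 ± 0.08 in the Ath+HF 68w group and 0.28 ± 0.08 in the Ath+HF+BCAA 68w group, and both calls were lost with quantile normalization (adjusted p = 0.0806 and 0.396). With array medians set equal the second was 0.07 and was not called (adjusted p = 0.486). The call of the second was also lost without basal replicate 2 or Ath+HF+BCAA 68w replicate 1 (adjusted p = 0.0506 in each case). Icam2, a constitutive ligand of LFA-1 on endothelium, read 7.67, 7.32 and 7.27 in the basal group, 7.27, 7.36 and 7.37 in the Ath+HF 38w group and 7.55, 7.51 and 7.32 in the Ath+HF+BCAA 38w group. At 68w Icam2 read 7.67, 7.70 and 7.62 in the Ath+HF group and 7.57, 7.66 and 7.65 in the Ath+HF+BCAA group. It was called in the change from Ath+HF 38w to Ath+HF 68w, where it was higher by 0.33 (adjusted p = 0.0244) as Icam1 fell by 0.84, Vcam1 by 1.24 and Pecam1 by 0.71 on the log2 scale. The call of Icam2 was lost without Ath+HF 38w replicate 1 (adjusted p = 0.0788) or Ath+HF 68w replicate 1 (0.0556) or 2 (0.0723). Icam4, a dim gene with group means under 6.682, lay between 6.17 and 6.89 on the 15 arrays and was called in no comparison. From Ath+HF+BCAA 38w to Ath+HF+BCAA 68w Vcam1 was higher by 0.89 (adjusted p = 0.00144) and Icam1 by 0.37 (adjusted p = 0.0156), the latter not without replicate 2 of either group (adjusted p = 0.0827 without that of 38w and 0.0736 without that of 68w) nor with array medians set equal (0.122).

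**Figure D4:**
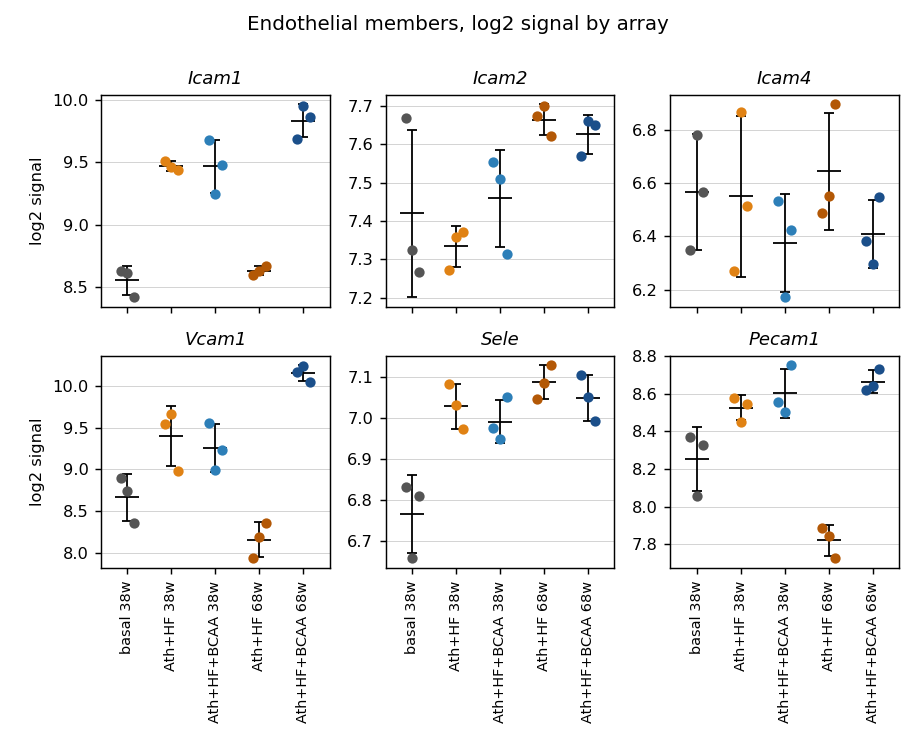
Log2 signal (vertical axis, scaled for each gene) of the 6 endothelial members on the 15 arrays, 3 points for each of the 5 groups, with the mean and SD as black bars. Vcam1 spans from 7.94 to 10.23 over the arrays, whereas Icam4 spans from 6.17 to 6.89 with all groups overlapping.

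Going by the labels, the differences between the diets with and without BCAA were not the same at 38w and at 68w. Age, time on the diet and any batch of the 68w arrays cannot be told apart here. At 38w none of the 32 members was called between Ath+HF+BCAA and Ath+HF by limma, 3 had an unadjusted p below 0.05 (Itga7, Itga3 and Itgal), and of all genes 0 were called and 1528 had an unadjusted p below 0.05. The log2 differences at 38w ran from -0.32 (Itga7) to 0.20 (Itga6), and no 95% interval of a member reached below -0.58 or above 0.50. For Itgb2 the interval was -0.26 to 0.33, for Icam1 -0.24 to 0.23 and for Itga4 -0.43 to 0.41. At 68w 20 members had a higher signal on the Ath+HF+BCAA diet than on the Ath+HF diet, going by the labels, and none a lower one, beside 19.8% of all genes higher and 16.4% lower. These were 6 leukocyte, 11 matrix-binding and 3 endothelial genes. With array medians set equal 20 were higher and 3 lower (Itga10, Itga2b and Itgb3), and with quantile normalization 21 were higher and the same 3 lower.

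At 68w the largest differences were those of Itgax (2.73 ± 0.10, 6.66-fold, adjusted p = 2.7e-10), Itga6 (2.26 ± 0.14, 4.78-fold, adjusted p = 1.17e-08), Itga8 (2.15 ± 0.17, 4.45-fold) and Itga4 (2.15 ± 0.20, 4.43-fold). Some receptors were higher together with their ligand and some were not. Vcam1 was at 1.99 ± 0.19 beside Itga4, and Icam1 at 1.20 ± 0.11 beside Itgal at 1.33 ± 0.13 and Itgb2 at 2.11 ± 0.14. The other ligands of LFA-1 and related integrins, Icam2 (-0.04 ± 0.11) and Icam4 (-0.23 ± 0.16), were not called, and neither was the selectin Sele (-0.04 ± 0.08), beside Selplg at 1.43 ± 0.16. Itgb1 (0.61 ± 0.10) and Itga1 (0.64 ± 0.11) had the smallest called differences together with Itga3 (0.63 ± 0.10). The difference of the BCAA effect between 68w and 38w, tested as an interaction, was called for the same 20 members and in the same direction, beside 12.9% of all genes called higher and 7.67% lower. It was 2.66 ± 0.15 for Itgax (adjusted p = 5.29e-08), 2.16 ± 0.28 for Itga4 (adjusted p = 5.29e-05), 2.13 ± 0.26 for Vcam1 (adjusted p = 3.42e-05) and 0.68 ± 0.15 for Itgb1 (adjusted p = 0.00402). The sign of every difference between the 68w groups turns if their labels are exchanged, and the interaction was then called lower for 19 members and higher for none.

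**Figure D5:**
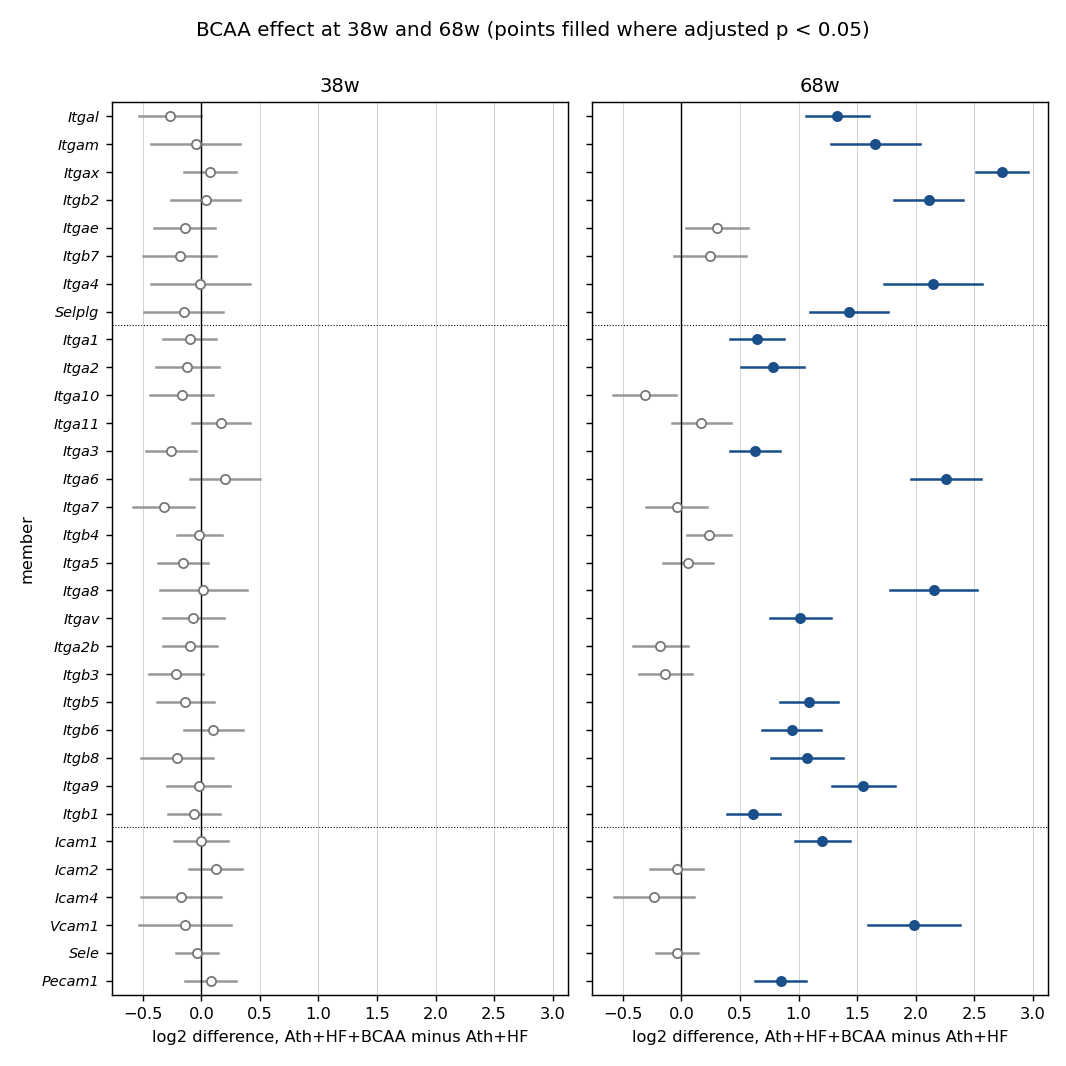
Log2 difference between Ath+HF+BCAA and Ath+HF (horizontal axis) for the 32 members (rows, leukocyte at the top, matrix-binding in the middle, endothelial at the bottom) at 38w on the left and 68w on the right, with 95% intervals and filled points where the adjusted p was below 0.05. No point is filled at 38w and 20 are filled at 68w, all to the right of 0.

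The other genes of the adhesion pathway are given by their counts beside the share over all genes. Of 28 adaptor and signalling genes of integrins, 4 were higher and none lower in the Ath+HF 38w group, and 4 and 1 in the Ath+HF+BCAA 38w group (14.3% higher in each, beside 3.05% and 3.67% of all genes). At 68w 6 were higher and 5 lower in the Ath+HF group (21.4% and 17.9%), near the 19.0% and 19.1% of all genes. In the Ath+HF+BCAA 68w group 20 were higher and 3 lower (71.4% and 10.7%, beside 22.9% and 21.8%). Among the called adaptors, Parvg, the parvin of blood cells, rose by 0.94 in the Ath+HF 38w group, ahead of the actin crosslinker Actn1 (0.69) and the leukocyte kindlin Fermt3 (0.55). With BCAA at 38w Fyb (1.06), an adaptor of integrin activation in T cells and platelets, led Parvg (0.77) and the Rap1 effector Apbb1ip (0.65). At 68w on Ath+HF Lims1, a partner of integrin-linked kinase, was lower (-0.64), and Lims2 (0.62) and paxillin, Pxn (0.60), were higher. At 68w with BCAA Fyb (2.18), Parvg (1.70) and Apbb1ip (1.67) were highest above basal, while the non-hematopoietic kindlin Fermt2 was lower (-0.97, adjusted p = 1.4e-06) as Fermt3 was higher (1.23, adjusted p = 9.34e-07).

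Between ages 5 adaptors were higher and 12 lower on the Ath+HF diet (17.9% and 42.9%, beside 17.6% and 20.0% of all genes), with Fyb (-1.18), Parvg (-0.89) and Lims1 (-0.85) in front. On the Ath+HF+BCAA diet 17 were higher and 3 lower (60.7% and 10.7%, beside 20.5% and 18.3%), with Fyb (1.11), Fermt2 (-1.05) and Apbb1ip (1.02) in front. At 68w 19 were higher and 3 lower with BCAA (67.9% and 10.7%, beside 19.8% and 16.4%), led by Fyb (2.44), Apbb1ip (1.87) and Actn1 (1.77). None was called between the diets at 38w, where 4 had an unadjusted p below 0.05.

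Of 23 soluble and matrix ligands of integrins, 9 were higher and none lower in the Ath+HF 38w group, and 8 and 1 in the Ath+HF+BCAA 38w group (39.1% and 34.8% higher, beside 3.05% and 3.67% of all genes). At 68w 4 were higher and 1 lower in the Ath+HF group (17.4% and 4.35%, beside 19.0% and 19.1%), and 16 and 3 in the Ath+HF+BCAA 68w group (69.6% and 13%, beside 22.9% and 21.8%). Thrombospondin 1, Thbs1 (1.20), tenascin C, Tnc (1.13), and the collagen chain Col1a1 (0.81) led the Ath+HF 38w group, and Thbs1 (1.27), the Itgae ligand E-cadherin, Cdh1 (1.13), and Tnc (1.05) the Ath+HF+BCAA 38w group. At 68w on Ath+HF the gut addressin Madcam1 (0.59), Emilin1 (0.36) and the laminin chain Lama5 (0.34) were highest above basal among the called ligands. At 68w with BCAA Mfge8 (2.55), a bridge between dying cells and Itgav receptors, the basement membrane linker Nid1 (2.20) and the Itga9 ligand Svep1 (2.13) were highest. Itga9 itself was at 1.29 there. Npnt, nephronectin, a ligand of the Itga8 pair, went the other way from its receptor and was lower (-0.89, adjusted p = 7.65e-05) where Itga8 was at 1.99.

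From 38w to 68w 1 ligand was higher and 11 were lower on the Ath+HF diet (4.35% and 47.8%, beside 17.6% and 20.0% of all genes), with Thbs1 (-1.09), Tnc (-0.93) and Mfge8 (-0.77) in front. On the Ath+HF+BCAA diet 13 were higher and 3 lower (56.5% and 13%, beside 20.5% and 18.3%), with Mfge8 (1.84), Svep1 (1.59) and Nid1 (1.56) in front. At 68w 15 were higher and 3 lower with BCAA (65.2% and 13%, beside 19.8% and 16.4%), led by Mfge8 (2.58), Nid1 (2.23) and Thbs1 (1.99). None was called between the diets at 38w, where 1 had an unadjusted p below 0.05.

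Of 19 other leukocyte adhesion and selectin ligand genes, 4 were higher and none lower in each 38w group (21.1% higher, beside 3.05% and 3.67% of all genes). In the Ath+HF 68w group 3 were higher and 4 lower (15.8% and 21.1%), near the 19.0% and 19.1% of all genes, and in the Ath+HF+BCAA 68w group 9 and 1 (47.4% and 5.26%, beside 22.9% and 21.8%). Cd44, the hyaluronan receptor and a selectin ligand, was highest above basal in both 38w groups (1.04 and 0.96). It was followed by Cd24a (0.75) and Spn (0.63), mucin-like surface proteins, without BCAA, and by Gcnt1 (0.77), which builds selectin ligand glycans, and Alcam (0.68) with BCAA. At 68w on Ath+HF Spn (0.69) was higher and Jam2 (-0.64) and Cd47 (-0.60) were lower. At 68w with BCAA Cd24a (2.66), Cd44 (1.998) and Alcam (1.23) were highest.

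From 38w to 68w 2 of these genes were higher and 7 lower on the Ath+HF diet (10.5% and 36.8%, beside 17.6% and 20.0% of all genes), with Cd44 (-1.20), Jam2 (-1.14) and Cd24a (-1.03) in front. On the Ath+HF+BCAA diet 8 were higher and 1 lower (42.1% and 5.26%, beside 20.5% and 18.3%), with Cd24a (1.98), Cd44 (1.03) and F11r (0.64) in front. At 68w 11 were higher and none lower with BCAA (57.9% higher, beside 19.8%), led by Cd24a (2.94), Cd44 (2.15) and Alcam (1.52). None was called between the diets at 38w, where 2 had an unadjusted p below 0.05.

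Markers of the cells that carry these receptors differed in how far they moved with them. The share of all genes called was 3.05% higher and 1.18% lower in the Ath+HF 38w group, 3.67% and 1.82% in the Ath+HF+BCAA 38w group, 19.0% and 19.1% in the Ath+HF 68w group and 22.9% and 21.8% in the Ath+HF+BCAA 68w group. All 4 general leukocyte markers (Ptprc, Coro1a, Laptm5 and Cd53) were higher than basal in both 38w groups and in the Ath+HF+BCAA 68w group, and 2 were lower in the Ath+HF 68w group, where no leukocyte member was called. Their summed linear signal was 1733 to 1969 in the basal group, 3154 to 3900 in the Ath+HF 38w group, 3334 to 4314 in the Ath+HF+BCAA 38w group, 1224 to 1325 in the Ath+HF 68w group and 5814 to 7944 in the Ath+HF+BCAA 68w group. Of 13 macrophage and monocyte markers, 9 were higher in each 38w group, 6 were lower in the Ath+HF 68w group and 11 were higher in the Ath+HF+BCAA 68w group. Their summed signal ran from 10790 to 11000, 18640 to 23980, 16750 to 22430, 6919 to 7609 and 27160 to 34200 over the groups in the order above. Of 8 neutrophil markers 1 was higher in the Ath+HF 38w group, none was called in the Ath+HF+BCAA 38w group or the Ath+HF 68w group, and 5 were higher in the Ath+HF+BCAA 68w group. The neutrophil sums were 582.7 to 659.5, 807.6 to 1071, 805.7 to 1039, 671.1 to 718.3 and 884.1 to 2987 in the same order. Of 6 dendritic cell markers 1 was higher at 38w without BCAA and 2 with it, 3 in the Ath+HF 68w group (Flt3, Siglech and Ccr7) and 5 in the Ath+HF+BCAA 68w group. Their sums were 631 to 753.2, 786.8 to 901.8, 769.3 to 951.5, 813.7 to 878.2 and 1186 to 1318. None of 8 T cell and 6 B cell markers was called at 38w. In the Ath+HF 68w group 1 T cell marker was lower, and in the Ath+HF+BCAA 68w group 5 T cell and 3 B cell markers were higher. The T cell sums ran from 894.1 to 1271 over the other 4 groups and from 1237 to 2282 in the Ath+HF+BCAA 68w group, and the B cell sums from 507.3 to 750.0 and from 790.6 to 1026. The part of these cells in the differences of the leukocyte members was not tested.

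For the matrix-binding and endothelial members the markers moved less evenly. Against basal, 19.0% of all genes were higher and 19.1% lower in the Ath+HF 68w group, and 22.9% and 21.8% in the Ath+HF+BCAA 68w group. None of 12 endothelial markers was called at 38w against basal, 5 were lower in the Ath+HF 68w group and 6 were higher and 1 lower in the Ath+HF+BCAA 68w group. The summed signals were 6238 to 8103 in the basal group, 5712 to 6370 in the Ath+HF 68w group and 8306 to 9036 in the Ath+HF+BCAA 68w group. Of 10 stellate cell and myofibroblast markers, 2 were higher in each 38w group (20%, beside 3.05% and 3.67% of all genes). In the Ath+HF 68w group 1 was higher and 2 lower (10% and 20%), the latter near the share of all genes. In the Ath+HF+BCAA 68w group 6 were higher and 1 lower (60% and 10%). The sums were 7095 to 8270 in the basal, 6446 to 8024 in the Ath+HF 68w and 10310 to 11400 in the Ath+HF+BCAA 68w group. Of 5 cholangiocyte markers 4 were higher in the Ath+HF+BCAA 68w group, with sums of 1312 to 1382 against 693.7 to 943.5 in the basal group. Of 3 platelet markers 1 (Pf4) was higher there, beside Itga2b at 0.01 and Itgb3 at -0.04, with sums of 321.2 to 392.3 in the basal group and 408.5 to 606.5 in the Ath+HF+BCAA 68w group. Of 3 erythroid markers Alas2 was lower in both 68w groups and Slc4a1 higher in the Ath+HF 68w group, with sums of 1075 to 1294 in the basal, 706.2 to 947.9 in the Ath+HF 68w and 582.4 to 850.5 in the Ath+HF+BCAA 68w group. Of 8 hepatocyte markers none was called at 38w, 2 were higher in the Ath+HF 68w group (Hnf4a and Apoa1) and 2 lower in the Ath+HF+BCAA 68w group (G6pc and Fabp1). Each of these counts made 25% of the list, near the share of all genes. Between the 68w groups 4 hepatocyte markers were lower with BCAA, G6pc by 2.41, Fabp1 by 1.36, Hnf4a by 0.31 and Ttr by 0.29 on the log2 scale. Their part in the differences of these members was not tested.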

How the data were processed

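Liver RNA hybridised to 15 GeneChip Mouse Gene 1.0 ST arrays, 3 for each group, was analysed from the log2 values that the authors deposited, made with RMA in Affymetrix Expression Console per the labels (version not given in the sources used here). RMA corrects the background, normalizes between arrays and summarizes probes. The array medians over all transcript clusters still ran from 6.91 to 7.16, so the deposited distributions were not equal. Of 35556 transcript clusters, 21789 carried 1 gene symbol, 1621 carried several and 12146 were unnamed here. The brightest single-symbol cluster stood for each of 19938 genes, and every member found had 1 cluster. Groups came from the labels. One limma 3.58.1 fit (R 4.3.3) over the 5 groups, with 10 residual degrees of freedom, gave 8 pairwise comparisons and the interaction of BCAA with age, with Benjamini-Hochberg adjustment over all genes. It was tested on simulated data. Signals carry no read depth, and the number of arrays limits the precision.

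The members and lists were chosen with earlier results of these data known. Values by array were given for members called in at least 3 pairwise comparisons or moving against their class, and for each other list the 3 called genes with the largest difference. The cell type marker lists are given by their counts and the range of their summed linear signal. Alternatives were equal array medians, quantile normalization, the mean of clusters, a filter that left out dim genes (below the 30th percentile), fits of the compared groups or of the 38w arrays alone, a variance trend, array weights, a replicate block and leaving out each array. Exchanging the 68w labels was added after the data were seen. Motifs in the protein tails were not searched, and Selp was not analysed here.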

Additional observations from a re-analysis of the deposited data

Results flagged for a closer look

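In 20 members the effect of BCAA differed between 68w and 38w by the interaction test, with each value being the 68w difference between the arrays labelled Ath+HF+BCAA and Ath+HF minus the 38w difference, on the log2 scale. Among the leukocyte genes it was 2.66 for Itgax, 2.16 for Itga4, 2.07 for Itgb2, 1.71 for Itgam, 1.60 for Itgal and 1.58 for Selplg. Among the matrix-binding chains it was 2.14 for Itga8, 2.05 for Itga6, 1.58 for Itga9, 1.29 for Itgb8, 1.23 for Itgb5, 1.09 for Itgav, 0.90 for Itga2, 0.89 for Itga3, 0.84 for Itgb6, 0.75 for Itga1 and 0.68 for Itgb1. Among the endothelial genes it was 2.13 for Vcam1, 1.21 for Icam1 and 0.77 for Pecam1. All 20 calls were also made in each alternative that tested them (Itgb6 was left out with the dim genes), except that with the 68w labels exchanged 19 were called, all lower, and Itga3 was not.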

How the results depend on the processing

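Over the 126 called differences of members, 2813 values under the alternatives kept direction and call, 97 kept the direction and lost the call, and none reversed, the exchange of labels below excepted. The count of members called moved by more than 1.5 times once, in Ath+HF+BCAA 38w against basal, from 7 to 11 with dim genes left out, where fewer genes were tested (5982 genes and 3 members, Itgae, Itgb6 and Icam4, were removed). Leaving out 1 array gave 7 to 12 members called in Ath+HF 38w against basal, 5 to 10 in Ath+HF+BCAA 38w, 7 to 11 in Ath+HF 68w and 20 to 23 in Ath+HF+BCAA 68w, and 20 to 22 between the diets at 68w. With array medians set equal the median difference over all genes moved from 0.01 to -0.20 in Ath+HF+BCAA 68w against basal and from -0.09 to -0.23 between the 68w groups, and 8 called differences lost the call. With quantile normalization 12 did, with the fit of the compared groups alone 6, and with the 38w arrays alone 4. With the replicate block 11 members were called in Ath+HF 68w against basal in place of 10 (Itgb8 was added, adjusted p = 0.0446), and the counts 10, 7, 23, 18, 18, 0, 20 and 20 of the other comparisons stayed. The numbers do not pair the arrays: over 30 pairs with the same number the deviations correlated at -0.156 to 0.183. Signal over background was not in the values used. With the 68w labels exchanged, an alternative chosen after seeing the data, the balance of higher and lower members turned in each comparison with a 68w group. Not every member turned with it. Itga1 was still lower from 38w to 68w on the Ath+HF diet (-0.54), and Sele was above basal in both 68w groups either way. The members called were then 23 in Ath+HF 68w and 10 in Ath+HF+BCAA 68w against basal, 19 (18 higher) and 18 (17 lower) from 38w to 68w without and with BCAA, 20 between the diets at 68w and 19 for the interaction, all lower in the last pair.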
